A study of Mus musculus with 8 samples.

Results

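The nuclear oxidative phosphorylation genes are the chromosomal genes that encode the subunits of the respiratory chain complexes and of the ATP synthase. Members were taken by symbol from the gene list of the second run: names that start with Ndufa, Ndufb, Ndufc, Ndufs, Ndufv, Uqcr, Sdh, Atp5 or Cox4 to Cox8, without pseudogenes and without the Ndufaf and Uqcc assembly factors. The rule found 89 members among the 30406 genes that both runs' gene lists share, and all 89 were matched to the first run by gene identifier. By complex they were 36 genes of complex I, 8 of complex II (which under this rule include the assembly factors Sdhaf1 to Sdhaf4), 8 of complex III, 20 of complex IV (with Ndufa4 and Ndufa4l2) and 17 of complex V.

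Single-cell RNA-seq libraries were made from YFP-sorted cells of the mesentery and of the epididymal fat of male mice. All mice carried ROSA26-eYFP on both alleles and the tamoxifen-inducible Cdh5-CreERT2, whose Cadherin 5 promoter is active in endothelial cells, so that YFP marks cells that had expressed it and their progeny. Tamoxifen diet was given from 6 weeks of age for 2 weeks, and from 8 weeks the mice ate either chow with 5.8% fat or a high fat diet with 60% fat for 12 to 13 weeks. The 4 groups were thus mesentery or adipose tissue, each from mice on chow and from mice on high fat diet. Each library pooled the tissue of 6 mice, Actinomycin D (an inhibitor of transcription) was present while cells were isolated, and each group has 2 libraries, 1 in run A and 1 in run B, because the experiment was done a second time. No group lacks the Cre, the reporter or the tamoxifen. A p-value here rests on the spread between the 2 libraries of a group, 2 pools of mice, estimated over the 4 groups together. Without a term for the run this spread includes the difference between run A and run B. With the run as a block it is the spread left after that difference.

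Complexes I and II pass electrons from NADH and succinate to ubiquinone, complex III passes them on to cytochrome c, and complex IV hands them to oxygen. Complexes I, III and IV pump protons across the inner mitochondrial membrane, and complex V, the ATP synthase, uses the gradient to make ATP. A few core subunits carry the redox centres or the catalytic sites, a small set of them is encoded by mitochondrial DNA, and the many remaining subunits are short proteins that surround the core. Endothelial cells are known for making much of their ATP by glycolysis and for keeping few mitochondria compared with heart or brown fat.

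Libraries held from 3461360 to 36779289 UMIs (unique molecule counts), and 23170 of 27944 barcodes passed the limits on UMIs, genes, mitochondrial reads and doublets. Values below come from the cells of endothelial clusters, which numbered 688 to 1314 per library in run A and 2456 to 4396 in run B. They include cluster 3 (2359 cells), which passed the endothelial marker limit, but whose 10 leading genes are haemoglobin and adipocyte genes (such as Hbb-bs, Cfd and Adipoq), and cluster 1 (2653 cells), whose leading genes include Car3. Without these clusters 672 to 1261 cells per library remained in run A and 1954 to 3017 in run B, and the members' share was 1.46% to 1.76% and 2.02% to 2.10%. All 8 endothelial markers had UMIs in every library, with Cdh5 (the gene of VE-cadherin) at 452 to 2002 CPM and Pecam1 at 917 to 1647 CPM. The limit on mitochondrial reads removed 22.8% to 30.8% of barcodes in run A and 5.42% to 8.96% in run B. Any pair of libraries shared at most 10 cell barcodes. Arterial-like cells (clusters 4 and 7) and capillary-like cells (cluster 2) were also analysed alone, and run A held only 22 to 66 capillary-like cells per library against 375 to 874 in run B.

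Levels are CPM values (UMIs of a gene relative to all UMIs) of the summed endothelial cells, scaled with edgeR's TMM factors. A 3′ UMI counts 1 transcript end, so that CPM are not divided by gene length. The members together took 1.46% of the UMIs in mesentery on chow, 1.77% in adipose on chow, 1.73% in mesentery on high fat diet and 1.64% in adipose on high fat diet in run A. In the same order they took 2.15%, 2.15%, 2.08% and 2.12% in run B. The 4 libraries of run B lay above the 4 of run A. The groups lay close together in run B and were more spread in run A, where mesentery on chow was the lowest. The 13 subunits encoded by mitochondrial DNA went the other way between the runs, with 4.26% to 5.09% of UMIs in run A and 2.83% to 3.43% in run B. Cells above 10% mitochondrial UMIs had been removed, so that this share is limited by that step.

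**Figure D1:**
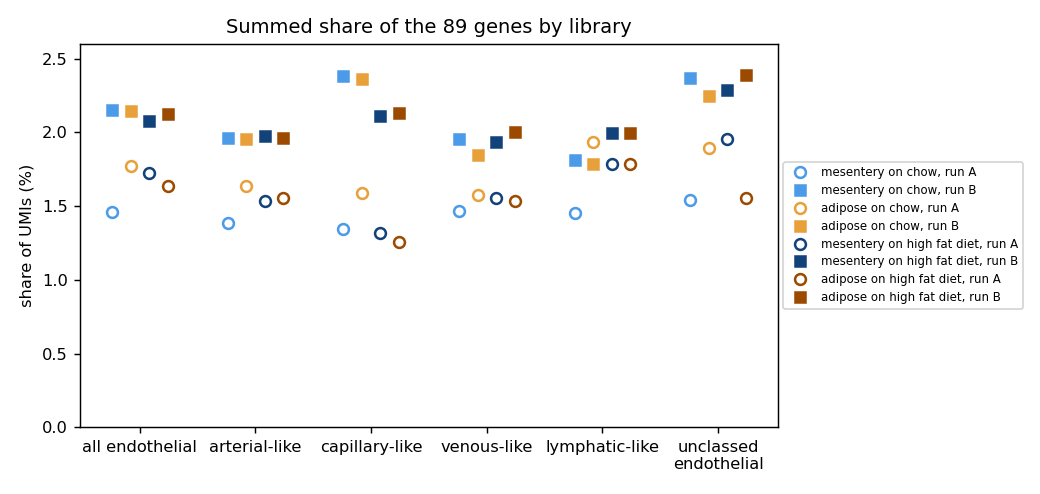
Share of all UMIs (percent) taken by the members in each library, with the cell class on the horizontal axis, open circles for run A and filled squares for run B. For all endothelial cells the 4 points of run A lie between 1.46% and 1.77% and the 4 of run B between 2.08% and 2.15%.

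Cox4i1, the common form of a regulatory subunit of complex IV, had the highest level of all members, with a mean of 861 CPM over the 8 libraries. It was followed by Cox6c at 614, Cox8a at 586, Atp5j at 516 and Cox7c at 514 CPM, which are short subunits of complex IV and, for Atp5j, of the stalk of the ATP synthase. By complex, the median member had 149 CPM in complex I, 46.2 in complex II, 242 in complex III, 287 in complex IV and 281 in complex V. Complex II had the lowest median, which counts the assembly factors Sdhaf1 to Sdhaf4 at 9.16 to 42.6 CPM. Its subunits ranged from Sdhd at 49.8 CPM to Sdha, the flavoprotein that oxidises succinate, at 118 CPM. Single members of other complexes lay lower, such as Ndufs1 of complex I at 34.5 CPM. Of all members, 19 had a mean above 300 CPM and 5 of those tested had a mean below 10 CPM.

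At the bottom stood isoforms known from other tissues. Cox7b2 had 2, Cox8c 4 and Cox6a2 9 UMIs over all 8 libraries, too few to be tested, so that tests cover 86 members. Cox7a1 and Cox8b, the heart and muscle forms, had means of 1.45 and 3.35 CPM against 363 CPM for Cox7a2 and 586 CPM for Cox8a. Cox6b2, the testis form, had 5.70 CPM against 363 CPM for Cox6b1. The order of the members was similar in both runs, with a Spearman correlation of 0.81 between the run means over 86 members, which share library, depth and normalization within a run. Of the 75 members at 50 CPM or more, the median ratio of the highest to the lowest library was 1.79 over 8 libraries, 1.29 over the 4 of run A and 1.12 over the 4 of run B.

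**Figure D2:**
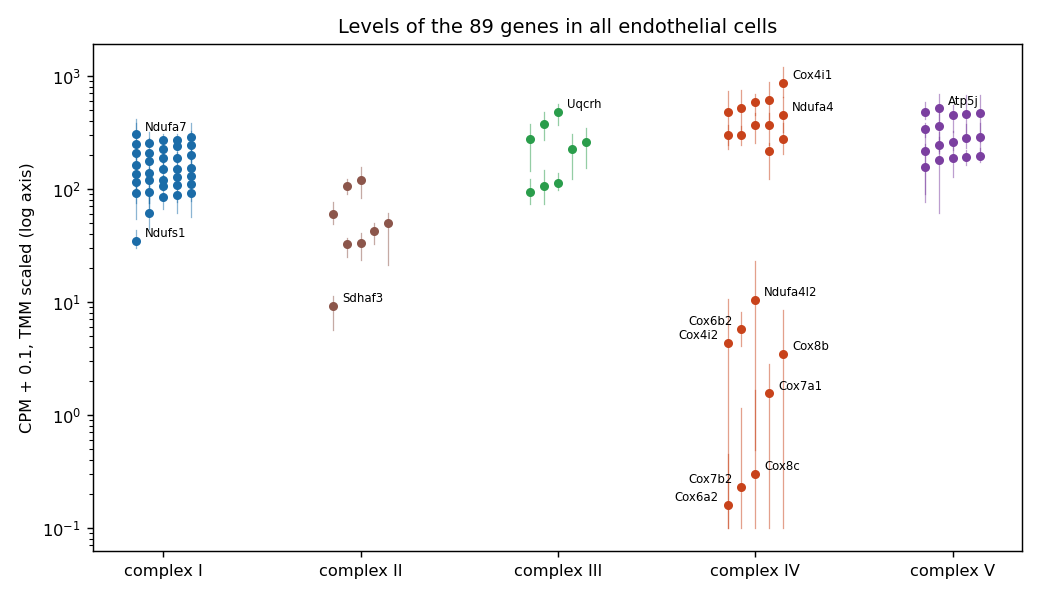
Mean level of each member over the 8 libraries (CPM of all endothelial cells plus 0.1, log axis) by complex, 1 point per gene, with a line from its lowest to its highest library. Complex II, with the assembly factors Sdhaf1 to Sdhaf4 counted in it, has the lowest median at 46.2 CPM. Complex IV spans from Cox4i1 at 861 CPM to the isoforms that were not tested.

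The ubiquitous Cox6a1 and Cox6b1, the testis isoform Cox6b2 and the small ATP synthase subunit gene Atp5k were picked by hand as examples of promoter sequence. RefSeq promoters (build GRCm38.p6) were matched for 72 of the 89 members. Each line gives 200 bases upstream of the RefSeq start, on the gene's strand. Gene positions elsewhere in the text come from a different gene model. In that model the stretches of Atp5k, Cox6a1 and Cox6b1 reach into the gene. Capitals mark a match to the motif of NRF1 (GCATGCGC) or of ETS factors such as GABPA (CCGGAAG), searched on both strands. The stretches are Atp5k at chr5:108434400-108434599, Cox6a1 at chr5:115348959-115349158, Cox6b1 at chr7:30626115-30626314 and Cox6b2 at chr7:4753095-4753294, all on the minus strand.
Atp5k: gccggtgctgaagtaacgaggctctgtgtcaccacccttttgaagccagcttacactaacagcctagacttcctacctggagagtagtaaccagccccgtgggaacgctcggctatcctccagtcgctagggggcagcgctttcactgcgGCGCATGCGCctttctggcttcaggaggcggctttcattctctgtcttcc
Cox6a1: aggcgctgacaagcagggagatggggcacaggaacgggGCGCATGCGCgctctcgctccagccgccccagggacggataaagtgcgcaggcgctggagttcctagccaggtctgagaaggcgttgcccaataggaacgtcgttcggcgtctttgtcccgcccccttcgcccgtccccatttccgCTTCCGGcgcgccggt
Cox6b1: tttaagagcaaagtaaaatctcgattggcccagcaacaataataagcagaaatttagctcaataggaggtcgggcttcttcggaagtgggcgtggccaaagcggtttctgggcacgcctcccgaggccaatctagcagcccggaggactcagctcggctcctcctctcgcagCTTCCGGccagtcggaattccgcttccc
Cox6b2: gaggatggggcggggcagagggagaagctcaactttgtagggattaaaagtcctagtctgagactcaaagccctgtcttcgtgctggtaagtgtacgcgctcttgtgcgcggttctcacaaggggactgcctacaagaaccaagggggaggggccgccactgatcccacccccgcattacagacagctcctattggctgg

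In Atp5k and Cox6a1 the NRF1 letters matched on both strands at once, in 1 overlapping run. The upstream stretch of Cox6b2 held none of the motifs. Over 250 bases upstream, 8 of the 72 member promoters (11.1%) held the NRF1 motif against 2.54% of 26953 other genes, and 14 (19.4%) held the ETS motif against 7.80%. The other genes were all remaining genes with a RefSeq promoter, not matched to the members for level or GC content. The YY1 motif (AAGATGGC) was in 1 member promoter (1.39%) and in 1.83% of other genes. Any of the 3 motifs was in 20 member promoters (27.8%) and in 11.4% of the others. Promoters with and without a motif were found at high and at low levels. Cox8a at 586 and Cox7a1 at 1.45 CPM held none, while Atp5h at 474 and Sdhaf3 at 9.16 CPM held the ETS motif. A match describes these letters only.

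A pair of isoforms of complex IV, Cox4i2 and Ndufa4l2, differed from the remaining low members in where their UMIs lay. Cox4i2 is the alternative to Cox4i1 and Ndufa4l2 the paralog of Ndufa4, and both are known from hypoxic cells and from vascular mural cells. Cox4i2 lies at chr2:152754173-152765037 and Ndufa4l2 at chr10:127514967-127517154 of GRCm38, both on the plus strand. In endothelial cells Cox4i2 had 0, 0, 0.785 and 4.96 CPM in run A, in the order mesentery then adipose for chow, and the same for high fat diet. In run B it had 2.20, 7.27, 8.08 and 10.4 CPM. Ndufa4l2 had 1.03, 2.59, 0.393 and 6.45 CPM in run A and 8.01, 19.3, 21.7 and 22.8 CPM in run B, in the same order. Mesentery on chow was the lowest library for both genes in run B, and for Ndufa4l2 it was the second lowest in run A.

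In mural-like clusters the levels were higher, and far higher in run B. Over the 6 libraries with at least 20 such cells, Cox4i2 had a median of 263 CPM (7.64 to 352) and Ndufa4l2 of 682 CPM (49.7 to 774). The runs lay far apart in these cells. Cox4i2 had 243 to 352 CPM in run B. In adipose of run A it had 7.64 CPM on chow (2 UMIs) and 10.5 CPM on high fat diet (1 UMI). Ndufa4l2 had 669 to 774 CPM in run B, and 49.7 and 73.7 CPM in the same run A libraries. In arterial-like cells the highest library had 18.4 CPM of Cox4i2 and 34.1 CPM of Ndufa4l2, and 3 of the 8 libraries had no UMI of either gene. Rgs5, a mural marker, had 14.4, 6.2, 24.0 and 25.8 CPM in the endothelial cells of run A and 94.2, 286, 188 and 219 CPM in run B. The 9 mural markers together took 0.0422%, 0.0253%, 0.0175% and 0.0398% of the endothelial UMIs in run A and 0.0262%, 0.0440%, 0.0322% and 0.0469% in run B, and their part in the values of both genes was not tested.

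The remaining tissue forms were low in arterial-like and capillary-like cells too. Cox6b2 had a median over libraries of 79.1 CPM (60.8 to 95.4) in fibroblast-like cells, of 11.3 CPM in venous-like cells and of 2.91 CPM in arterial-like cells. Cox8b, a form that brown fat shares with muscle, was uneven over the 6 libraries with adipocyte-like cells, with 4 at 0 and the highest at 127 CPM. Cox7a1 had a median of 8.72 CPM in macrophage-like cells and 1.04 CPM in arterial-like cells. Ucp1, the uncoupling protein of brown fat, had 4 UMIs over all endothelial cells. For the members as a whole, adipocyte-like cells had 4.11% and 3.38% of UMIs in the mesentery and adipose chow libraries of run B and 2.28% and 2.41% in the high fat diet libraries. The run A libraries with at least 20 such cells, both from adipose, had 1.85% on chow and 2.08% on high fat diet. Mural-like cells had 2.30% to 2.72% in run B. Arterial-like cells had 1.39% to 1.64% in run A and 1.95% to 1.98% in run B.

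High fat diet against chow in the mesentery was the first comparison. No member passed an adjusted p of 0.05 in edgeR's quasi-likelihood test over 13369 genes, where 0% of all genes did. Of the members, 0 of 86 had an unadjusted p under 0.05, where 2.23% of all genes did. With the run as a block, 0.0748% of genes passed the adjusted threshold and 10% had an unadjusted p under 0.05, and no member was among either. The members' median log2 change was 0.08 beside 0.00 over all genes, and 0.07 beside -0.03 with the block. By complex the blocked medians were 0.07 for I, -0.11 for II, 0.12 for III, 0.08 for IV and 0.14 for V.

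The core subunits varied in how far the runs lay apart. Sdhb and Ndufs1 had log2 differences of run B against run A of -0.05 and -0.25 (blocked edgeR fit, adjusted p = 0.77 and 0.15). Those of the 3 below were larger. Atp5b, the catalytic subunit of the ATP synthase, had 509 CPM on chow and 581 on high fat diet in the mesentery of run A, and 331 and 320 CPM in run B. Ndufv1, the NADH-binding subunit of complex I, had 95.3 and 126 CPM in run A and 56.4 and 59.2 CPM in run B. Uqcrc1, a core protein of complex III, had 100 and 140 CPM in run A and 72.5 and 82.2 CPM in run B. Ndufv1 and Uqcrc1 were higher on high fat diet in both runs, Atp5b in run A only, and for all 3 both mesentery libraries of run A lay above both of run B.

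Cox4i2 had the largest fitted value, 1.92 on the log2 scale (SE 1.78, edgeR adjusted p = 1), and 1.96 (SE 0.84, adjusted p = 0.50) with the block, on 0 and 0.785 CPM in run A. Ndufa4l2 had 1.29, and 1.16 with the block (adjusted p = 0.54), with a lower level on high fat diet in run A and a higher one in run B. In both runs, 27 of 86 members were higher on high fat diet, against 24.7% of genes, and 15 were lower, against 27.5%. On the log2(CPM + 1) scale the median change within run A was 0.19 and within run B -0.01, so that the median member was above 0 in run A and close to 0 in run B.

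In adipose the same diet comparison gave 0 members past the adjusted threshold in either edgeR fit. Without the block 0% of all genes passed it. Unadjusted, no member and 0.748% of genes passed without the block. With the block, 0.0449% of genes passed the adjusted threshold and 3.52% the unadjusted one, again without a member. The median change was -0.05 with and without the block. Within run A it was -0.16 and within run B 0.03, the reverse of the mesentery. Ndufa8, an accessory subunit of complex I, had opposite changes in the runs in both tissues, with -0.68 in run A and 0.62 in run B in the mesentery and -0.24 and 0.51 in adipose. In both runs, 14 members were higher on high fat diet, beside 22.3% of genes, and 26 were lower, beside 22.7%. Atp5b had 671 CPM on chow and 533 on high fat diet in run A, and 373 and 311 CPM in run B, a difference that did not pass the test.

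**Figure D3:**
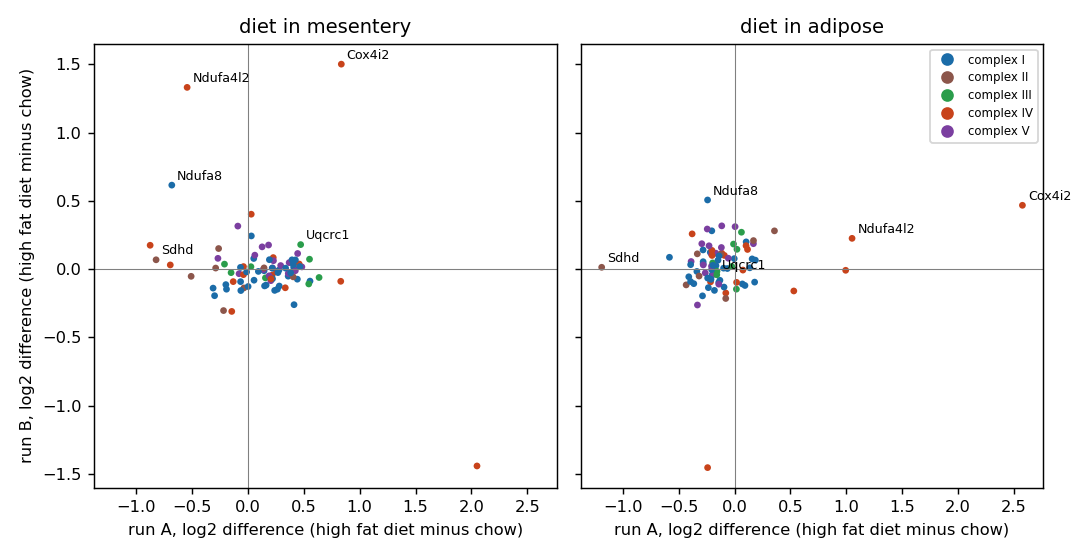
Log2 change (of CPM + 1) with high fat diet for each member in run A (horizontal axis) and run B (vertical axis), in mesentery and in adipose, 1 point per gene. The points form clouds centred at 0.19 in run A and -0.01 in run B for the mesentery and at -0.16 and 0.03 for adipose.

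Mesentery was compared with adipose on each diet. On chow, 0 members passed the adjusted threshold in either fit. Without the block 0% of all genes passed it, and 3.7% of genes and no member had an unadjusted p under 0.05. With the block, 0.419% of genes passed the adjusted threshold, and 11.5% and 1 member, Uqcrc1, the unadjusted one. Uqcrc1 had 100 CPM in mesentery and 146 in adipose in run A, and 72.5 and 85.4 CPM in run B. Its log2 difference was -0.42, and -0.38 with the block (SE 0.15, adjusted p = 0.39). The median member was lower in mesentery (log2 -0.12, and -0.14 with the block, beside -0.01 and 0.01 over all genes). In complex I, 31 of 36 members had a negative blocked value, in complex IV 14 of 17 and in complex V 16 of 17. In both runs, 41 of 86 members were lower in mesentery, beside 26.8% of genes, and 6 were higher, beside 29.1%. The median was -0.24 within run A and -0.02 within run B. The mesentery on chow library of run A had the lowest member share of the 8, at 1.46% of UMIs.

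On high fat diet 0 members passed either fit. Without the block 0.711% of genes and no member had an unadjusted p under 0.05, and with it 2.28% of genes and no member did. In either fit 0% of genes passed the adjusted threshold. The median was -0.02, and -0.01 with the block. In both runs, 13 members were higher in mesentery, beside 25.7% of genes, and 24 were lower, beside 26.2%.

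The interaction of tissue and diet, the diet change in mesentery minus that in adipose, had a median of 0.10 over the members, and 0.13 with the block. No member had an unadjusted p under 0.05 in either fit, where 0.636% of genes did without the block and 4.09% with it, and 0% of genes passed the adjusted threshold. DESeq2 called 0 members in each of these 5 comparisons, with and without the block. The share of all genes that DESeq2 called is not given here, also for the cell classes below. With the block, 80, 79, 81, 79 and 75 of 86 members had a 95% interval within 1 log2 unit of 0 in the 5 comparisons, and the median interval reached 0.40 to either side for a diet change in the mesentery. Without it the median interval reached 0.97 to either side and 39 members had such an interval for that comparison.

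**Figure D4:**
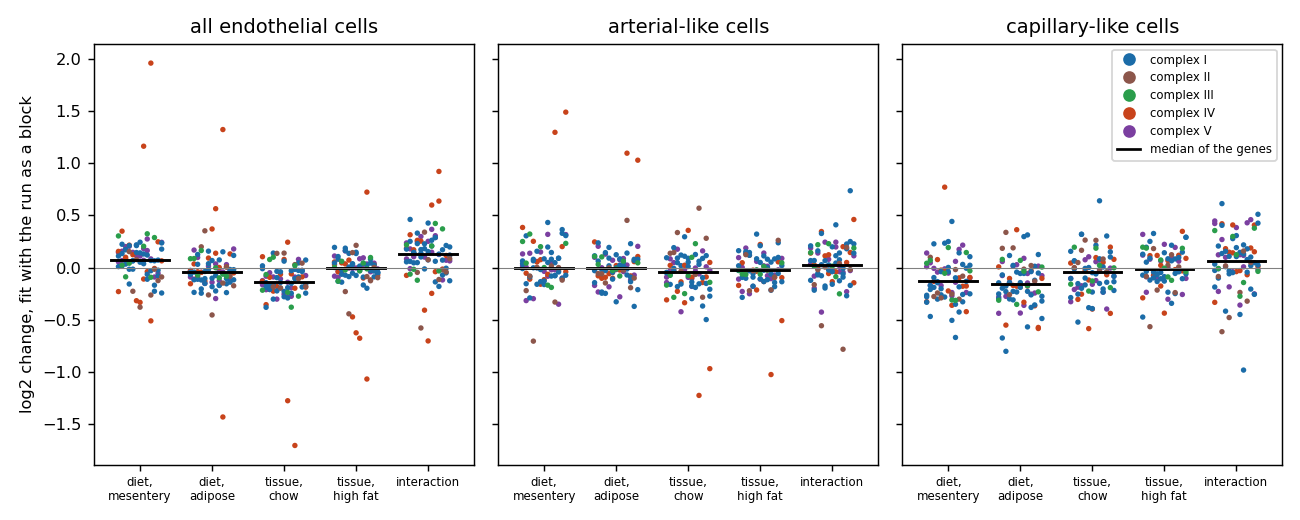
Log2 change of each member in the diet and tissue comparisons, coloured by complex, in all endothelial, arterial-like and capillary-like cells, from the fit with the run as a term, with black lines for medians. In all endothelial cells the points scatter around 0, with medians between -0.14 (tissue on chow) and 0.13 (interaction), and none passed an adjusted p of 0.05.

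Arterial-like cells, the endothelial cells of feeding vessels, were tested alone over 10438 genes and 83 members. No member was called in the 5 comparisons, in edgeR with or without the block or in DESeq2. Without the block 0% of all genes passed the adjusted threshold in each of them. Without the block no member had an unadjusted p under 0.05, where 1.9%, 0.565%, 2.22%, 0.498% and 0.297% of genes did for diet in mesentery, diet in adipose, tissue on chow, tissue on high fat diet and the interaction. With the block 2.54%, 0.316%, 3.26%, 0.105% and 0% of genes passed the adjusted threshold in that order. Unadjusted and blocked, the members numbered 2, 1, 1, 0 and 1 beside 10.3%, 3.3%, 11.4%, 2.94% and 3.7% of genes.

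Ndufa4l2 was a member with an unadjusted p under 0.05 for diet in both tissues of the arterial-like cells. It had 0 UMIs in the mesentery of run A on either diet, 9.56 CPM (30 UMIs) on chow and 27.7 CPM (94 UMIs) on high fat diet in the mesentery of run B. In adipose it had 0 and 3 UMIs in run A, and 19.4 CPM on chow and 34.1 CPM on high fat diet in run B. The high fat diet library was above its chow library in 3 of the 4 pairs, and the remaining pair was at 0 in both. The change in mesentery was 1.49 on the log2 scale (SE 1.30, adjusted p = 1), and 1.49 with the block (SE 0.50, adjusted p = 0.175). Without the mesentery on chow library of run A the blocked fit gave 1.45 (SE 0.42, adjusted p = 0.0155), the only call of a member among all fits run on the diet and tissue comparisons. In that fit the mesentery on chow group is the run B library alone, which is assumed to vary like the others. In the arterial-like cells of run B the 9 mural markers took 0.0167% of UMIs on chow and 0.0296% on high fat diet in the mesentery, and 0.0487% and 0.0581% in adipose. In run A they took 0.0108% and 0.0306% in the mesentery, and 0.0293% and 0.0154% in adipose. Their part in the Ndufa4l2 values was not tested. Sdhaf4, an assembly factor of complex II, and Ndufs6, which holds a zinc site of complex I, were the remaining members under the unadjusted threshold. Ndufs6 had 68.9 (chow) and 109 CPM (high fat diet) in the mesentery of run A and 94.9 and 116 CPM in run B. In adipose it had 108 and 67.9 CPM in run A and 136 and 110 CPM in run B, and its blocked interaction was 0.74 (adjusted p = 1).

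In capillary-like cells, the exchange vessels, 0 of 82 members were called over 9104 genes in edgeR with or without the block or in DESeq2. Without the block 0% of all genes passed the adjusted threshold in each comparison. Unadjusted and without the block, no member passed 0.05, where 0.78%, 0.692%, 0.527%, 0.187% and 0.0439% of genes did in the same order. With the block 1.03%, 0.846%, 0.297%, 0.154% and 0.022% of genes passed the adjusted threshold. Unadjusted and blocked, the members numbered 0, 2, 0, 0 and 0 beside 3.71%, 2.99%, 2.74%, 1.61% and 0.934% of genes. The members' blocked medians were -0.13 for diet in mesentery and -0.16 for diet in adipose, where all genes had 0.00 and -0.01. In adipose 30 of 36 members of complex I and 11 of 13 of complex IV had a negative value.

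The members' share in the capillary-like cells of run B was 2.39% in mesentery and 2.36% in adipose of chow-fed mice, and 2.11% and 2.13% after high fat diet. The chow libraries lay above those on high fat diet. The adipocyte markers took 0.494% and 0.358% of UMIs in the capillary-like cells of these chow libraries and at most 0.02004% in the remaining 6 libraries, and their part in this difference was not tested. Ndufb10 and Ndufc2, accessory subunits of complex I, were the 2 members with an unadjusted p for diet in adipose. Ndufb10 had 408 CPM on chow (28 UMIs) and 100.4 CPM on high fat diet (4 UMIs) in run A and 237 and 179 CPM in run B. In either run the chow library was the higher one, with a change of -1.04 on the log2 scale, and -0.80 with the block (adjusted p = 0.77).

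The largest differences among members lay between the runs. With the group in the fit, 36 members were higher in run B, beside 20.9% of genes, and 13 were lower, beside 18.3%. The members' median was 0.29 beside 0.04 over all genes. Run A and run B differ in their mice, their depth, the Cell Ranger version and the gene list used for counting, which cannot be told apart. The makeup of the endothelial cells also moved: capillary markers took 0.189% to 0.297% of UMIs in run A and 0.693% to 1.30% in run B, and lymphatic markers 0.542% to 1.74% and 0.153% to 0.347%. Each adipocyte marker was higher in both chow libraries of run B than in any library of run A. Cfd had 0 to 13.5 CPM in run A. In run B it had 797 (mesentery) and 1204 CPM (adipose) on chow, and 10.0 and 5.74 CPM on high fat diet. The part of adipocyte RNA in the members' run, diet and tissue values was not tested. In arterial-like cells alone 29 members were higher, beside 13.9% of genes, and 13 lower, beside 13.1%, and 41 of the 48 members tested there that were called in all endothelial cells were called in the same direction. In capillary-like cells 42 were higher, beside 8.85% of genes, and 1 was lower, beside 5%, and 34 of 47 were called in the same direction. Both classes are part of the same endothelial cells in the same libraries, so that these counts are not an independent repeat.

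Among members at 50 CPM or more, those that rose most were small accessory subunits. Atp5md, a small membrane subunit of the ATP synthase (chr19:47083464-47090647, minus strand, GRCm38), had 61.4, 69.5, 69.9 and 64.0 CPM in run A and 265, 286, 300 and 319 CPM in run B. Its log2 difference was 2.14 (SE 0.11, edgeR adjusted p = 5.53e-05). Ndufa3 of complex I (chr7:3617373-3620327, plus strand) had 57.6 to 70.3 CPM in run A and 254 to 314 CPM in run B, a difference of 2.12 (SE 0.13, adjusted p = 0.000107). Neither gene's runs overlapped. Ndufa1 rose by 1.75, Atp5k by 1.66, Cox7c by 1.24 and Cox6c by 1.04.

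The member that fell most was Cox7a2l. This gene, which takes part in joining complexes III and IV (chr17:83501918-83517330, minus strand), had 660 to 738 CPM in run A and 224 to 281 CPM in run B, a difference of -1.45 (SE 0.11, edgeR adjusted p = 0.000251). Ndufv1 had 95.3 to 154 CPM in run A and 56.0 to 60.3 CPM in run B, a difference of -1.07 (SE 0.13, adjusted p = 0.00126). Cox4i1, the highest member, had 914 to 1192 CPM in run A and 642 to 686 CPM in run B, a difference of -0.65. The core subunits Atp5b (-0.78), Atp5a1 (-0.70), Sdha (-0.69) and Uqcrc1 (-0.67) also fell, each without overlap between the runs.

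A set of 14 members was made of those that carry redox or catalytic sites and of Ndufs3, a core subunit without such a site. Of these 14, 0 were higher in run B and 7 were lower, Ndufs3 (-0.40) among them, with a median of -0.33. Among the remaining 72, 36 were higher and 6 lower, with a median of 0.42. The members of this set are also the longer ones, with a median of 278 residues against 117. By complex, 12 members of I rose and 4 fell, 1 and 1 of II, 4 and 2 of III, 11 and 2 of IV, and 8 and 4 of V. Of all genes tested, 20.9% rose and 18.3% fell.

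The run difference was ordered by protein size. Over 86 members the Spearman correlation of the log2 difference with the length of the coding sequence was -0.76, and over the 75 members at 50 CPM or more it was -0.81. Over 12576 other protein-coding genes it was -0.01, and over the 3298 of them at 50 CPM or more 0.02. These points share libraries, depth and gene models, and genes are not independent replicates. Of 24 members with a coding sequence of at most 300 nucleotides, 20 rose and 0 fell, with a median of 1.00. Of 27 members with 300 to 450 nucleotides, 14 rose and 1 fell, with a median of 0.38. From 450 to 900 nucleotides 1 of 24 rose and 5 fell, with a median of -0.13. Above 900 nucleotides 1 of 11 rose, Ndufv3 at 0.78, and 7 fell, with a median of -0.69. Of 262 other protein-coding genes of at most 300 nucleotides, 98 rose and 35 fell, with a median of 0.30. From 300 to 450 nucleotides 170 of 637 such genes rose and 101 fell. From 450 to 900 nucleotides 534 of 2572 rose and 494 fell, and above 900 nucleotides 1801 of 9105 rose and 1698 fell. Cytosolic ribosomal protein genes, which are short as well, had a correlation of -0.77 over 82 genes, with 15 that rose and 42 that fell.

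**Figure D5:**
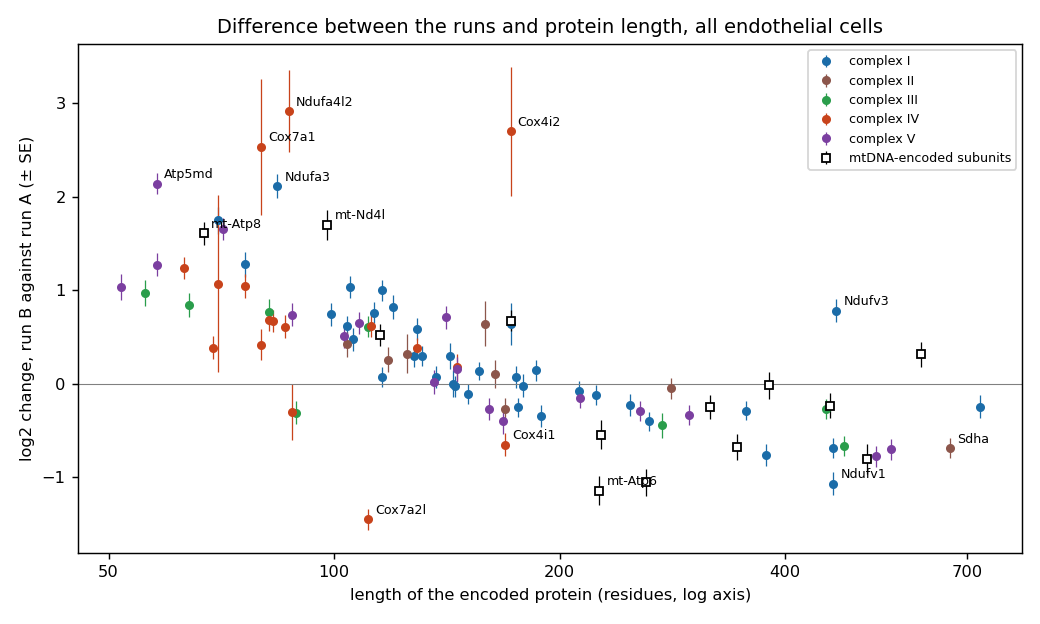
Log2 difference of run B against run A for each member (vertical axis) by the length of its protein in residues (horizontal log axis), in all endothelial cells, with lines for the SE and squares for the mtDNA-encoded subunits. Members with a coding sequence of at most 300 nucleotides have a median of 1.00 and those above 900 nucleotides of -0.69.

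The subunits encoded by mitochondrial DNA also split. Of 13, mt-Nd4l rose by 1.70 and mt-Atp8 by 1.61, with mt-Nd6 (0.68) and mt-Nd3 (0.52), while 5 fell: mt-Atp6 (-1.15), mt-Co3 (-1.05), mt-Co1 (-0.80), mt-Nd2 (-0.68) and mt-Co2 (-0.55). mt-Atp8 and mt-Atp6 lie on a common transcript and went opposite ways. The low-count isoforms Ndufa4l2 and Cox4i2 were higher in run B by 2.91 and 2.70. Of the 9 mural markers, Rgs5, Abcc9, Myh11, Pdgfrb, Notch3 and Cspg4 were higher in run B in each of the 4 groups. Abcc9 had 2.06 to 5.46 CPM in run A and 5.7 to 11.6 CPM in run B. Pdgfrb, Notch3 and Cspg4 reached at most 5.09 CPM. Kcnj8 (20.3 to 33.2 CPM in run A, 5.12 to 8.12 in run B) and Acta2 (36.5 to 81.5 and 11.4 to 32.6 CPM) were lower. Tagln (78.9 to 328 and 75.03 to 177 CPM) was lower except in mesentery on high fat diet. Tagln had the highest level of the 9 in each run A library, and it is also a leading gene of the venous-like cluster 6. The mean share of all 9 was 0.0312% in run A and 0.0373% in run B.

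Other genes of the pathway were described from lists of mtDNA-encoded subunits, assembly factors, electron carriers, nuclear regulators, citric acid cycle enzymes, and carriers and uncoupling proteins. In the 5 diet and tissue comparisons, edgeR called 1 of these genes in arterial-like cells, Ucp2, an uncoupling protein of many tissues, with a blocked change of 1.85 in the mesentery with high fat diet (SE 0.29, adjusted p = 0.00126). In all endothelial cells it called 0 of them with or without the block. With the block 2 had an unadjusted p under 0.05 in the mesentery's diet comparison and 3 in that of adipose. For tissue the number was 5 on chow but 0 on high fat diet. The interaction had 1. Without the block the number was 1 for diet in mesentery and 0 in the remaining comparisons. DESeq2 with the block called 1 of them, Ucp2, for diet in mesentery and for tissue on chow. In all endothelial cells Ucp2 had a blocked edgeR change of 1.52 with high fat diet in the mesentery (SE 0.19, adjusted p = 0.0644) and a value of -0.88 in mesentery against adipose on chow (adjusted p = 0.113). Of the ribosomal protein genes, edgeR called 0 in these comparisons with or without the block, with 0 to 3 cytosolic and 0 to 2 mitochondrial ones at an unadjusted p under 0.05, and DESeq2 with the block called Rps3 for tissue on chow.

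Between the runs, 15 of 41 assembly factors rose and 2 fell, led by Cox16 (3.60), Cox17 (2.70), a copper chaperone of complex IV, and Pet100 (1.96). Of 13 electron carriers 2 rose and 2 fell. Of 12 nuclear regulators of mitochondrial genes 2 rose, Gabpa (0.64) and Tfam (0.59), which maintains mitochondrial DNA, and 1 fell, the coactivator Ppargc1b (-1.51). Of 13 citric acid cycle enzymes 2 rose and 4 fell, and of 7 carriers 1 rose and 2 fell. Among 78 mitochondrial ribosomal protein genes 21 rose and 3 fell.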

How the data were processed

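The authors deposited, per the file headers, 8 matrices of 10x 3′ UMI counts, not normalized, 1 per library. Run A was counted with Cell Ranger 3.0.2 and run B with 5.0.0, per the file headers, and the submitters' processing notes name mm10 and Seurat 4.3.0. The aligner's further options were not stated in the labels. Members and gene lists were chosen with earlier results of these data known.

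Cells with at least 500 UMIs, 300 genes and at most 10% mitochondrial UMIs were kept, 800 barcodes (3.34%) with the highest Scrublet doublet scores of their library were removed, and 27 clusters were made, without the members, with scanpy 1.11.5 and leidenalg 0.10.2. Clusters were named from fixed markers, and a second clustering pass without genes of free RNA was chosen after the clusters were seen. Counts were summed per library and class and tested with edgeR 4.0.16 (quasi-likelihood, TMM, filterByExpr, 4 group means, Benjamini-Hochberg over all genes). The run letter pairs the groups: same-run deviations correlated at 0.625 to 0.793 in 6 pairs, so that a blocked fit (run letter as a term) is given beside each result. The difference between runs used the block. DESeq2 1.42.0, other scaling factors, no filter, other cell limits and leaving out each library were alternatives. The method was tested on simulated data. Named are the fixed isoform and core lists, up to 5 members a direction with the smallest p in each comparison, and the 5 highest and 5 lowest by level. Some values of the core list are not reported here.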

Additional observations from a re-analysis of the deposited data

Results flagged for a closer look

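In 9 members the diet change went one way in the mesentery in both runs and the other way in adipose in both runs, which was the case for 10.5% of the members tested and 7.27% of all genes. The diet change in mesentery minus that in adipose, as a mean over the runs on the log2(CPM + 1) scale, was 0.47 for Ndufv1, 0.43 for Uqcrc1, 0.43 for Ndufs6, 0.35 for Sdhb, 0.33 for Ndufa9, 0.29 for Atp5o and 0.26 for Atp5k. It was -0.25 for Cox7a2l and -0.60 for Sdhaf3, a low member with 9.16 CPM. In the edgeR test of this difference the smallest adjusted p of any member was 0.999948, and 1 with the run as a block.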

How the results depend on the processing

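Each of the 313 counts of called members recomputed under an alternative stayed within 1.5 times its value. In the 15 diet and tissue comparisons 0 stayed 0. The main fit without the block called 0% of all genes there, so that this 0 does not set the members apart from other genes. The run difference gave 39 to 49 members with 1 library left out, 53 with DESeq2 and 46 to 50 under other settings of the same cells. With the run as a replicate block 0 members were called in the same 15 comparisons, and of 120 blocked counts with 1 library left out 1 moved, from 0 to 1 (Ndufa4l2, given above). Of 261 medians over the members 43 moved by more than the spread. For the diet and tissue comparisons, the values below with 1 library left out come from fits without the block. The group that lost a library was then represented by 1 run alone, so that the difference between the runs entered its comparisons. With 1 library left out the median changed sign in all 15 diet and tissue comparisons: in all endothelial cells it ranged from -0.0985 to 0.25 for diet in mesentery, -0.24 to 0.14 for diet in adipose, -0.33 to 0.0445 for tissue on chow, -0.23 to 0.20 on high fat diet and -0.0651 to 0.33 for the interaction, and in capillary-like cells from -0.73 to 0.28 for diet in adipose. For the run difference it stayed between 0.22 and 0.34. Single members without a call changed sign when 1 library was left out. For diet in mesentery Cox4i2 ranged from -0.65 to 8.51, Ndufa4l2 from -3.55 to 3.48, Uqcrc1 from -0.0631 to 0.69 and Sdha from -0.62 to 0.0527. For diet in adipose Atp5b ranged from -0.73 to 0.17 and Ndufa4l2 from -0.87 to 2.53. For tissue on chow Uqcrc1 ranged from -0.75 to 0.00975, Ndufa4l2 from -3.48 to 0.87 and Cox4i2 from -8.31 to 6.38. In arterial-like cells Ndufa4l2 ranged from -6.55 to 8.10 for diet in mesentery and from -0.13 to 8.44 for diet in adipose, and in capillary-like cells Ndufc2 from -2.49 to 0.0131 for diet in adipose. How far the difference between the runs accounts for the changes of sign with 1 library left out was not tested. The run difference of Cox4i2 lost its call in 4 of these fits, with 2.31 to 4.52 over all 8. Alternatives for clusters led by adipocyte genes and for single classes were added after the data were seen, as were the blocked scaling fits. Capillary-like cells of run A limit their comparison, with 22 to 66 cells per library.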
